A study of Anthurium andraeanum with 18 samples.

Results

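3 assembled genes of the aroid Anthurium andraeanum (flamingo flower), each described as a terpene synthase that makes a scent volatile, were followed through 18 leaf RNA-sequencing libraries. They are the entry described as (-)-alpha-terpineol synthase (TRINITY_DN52761_c0_g5), the entry described as tricyclene synthase TPS4 (TRINITY_DN61283_c2_g1) and the entry described as alpha-humulene synthase ZSS1 (TRINITY_DN57290_c0_g2), 3 of the 158487 assembled genes in the deposited table. They were picked by name because of how their levels differed between the 6 groups of libraries, so their own levels and changes are a description, and no test is given for them. All 3 passed the filter on low counts, ZSS1 through its MH libraries. The entries share no assembly component, and no volatile was measured.

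Leaves came from flowering plants of 2 materials, called MH and Ken and not explained further, kept in growth chambers with 12 h of day and 12 h of night. Ken control and MH control stayed at 25 °C. Ken 38 and MH 38 had 3 days at 38 °C by day and 33 °C by night after a start at 25 °C, and Ken 40 and MH 40 went on from there to 3 days at 40 °C by day and 35 °C by night. When the controls were sampled is not stated. Temperature, time under heat and plant age therefore cannot be told apart in the heat comparisons. Each of the 6 groups had 3 libraries, called biological replicates. Whether they came from separate plants is not stated, and p-values then reflect only how far these libraries differ, which may be technical. The libraries held 15845190 to 22867268 estimated counts. Levels are in TPM, a transcript abundance scaled for gene length and library, and log2 changes are edgeR estimates ± SE. Leaf markers (115 entries of light-harvesting proteins, photosystems and Rubisco) summed to 121402.5 to 192239.55 TPM in the control libraries and to 1370.3 to 3461.66 TPM at 40 °C, and MH 38 replicate 3, at 41473 TPM against 5915 and 3658 TPM in the other two MH 38 libraries, stood apart from its group. Floral markers were limited to 12 AGAMOUS-like entries with summed levels of 15.7 to 47.3 TPM per library.

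Terpene synthases are the enzymes that turn prenyl diphosphates into the carbon skeletons of terpenes. Monoterpene synthases work in the plastid on geranyl diphosphate, which comes mostly from the methylerythritol phosphate (MEP) pathway, while sesquiterpene synthases work mostly in the cytosol on farnesyl diphosphate, which comes mostly from the mevalonate pathway. Alpha-terpineol is a lilac-scented monoterpene alcohol, tricyclene and beta-ocimene are monoterpene hydrocarbons, and alpha-humulene is a sesquiterpene of ginger and hop. Such volatiles are known from floral scent and, in leaves, from defence against insects. The descriptions of the 3 entries rest on matches to proteins of grapevine (Vitis vinifera), barrel medic (Medicago truncatula) and shampoo ginger (Zingiber zerumbet), and what these Anthurium enzymes make is not known from the files.

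The terpineol synthase entry was among the most abundant transcripts of the unheated Ken leaf and was close to absent after heat. In Ken control it stood at 3018.51, 2183.53 and 1838.88 TPM in replicates 1, 2 and 3. In Ken 38 it stood at 0.72, 0.74 and 0.26 TPM, and in Ken 40 at 0.38, 1.43 and 0.88 TPM. Every heated Ken library lay far below every control library, and the ranges of Ken 38 and Ken 40 overlapped. The mean of 2347 ± 607 TPM (SD, n = 3) in Ken control ranked 35th of the 158487 assembled genes. The ratio of scaled counts between Ken control and Ken 38 was 5574, and between Ken control and Ken 40 it was 3416. The fitted log2 change in Ken 38 was -12.45 ± 0.93, the lowest of all 70022 tested genes, and in Ken 40 it was -11.74 ± 0.90.

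In MH the same entry started far lower and was close to absent after heat, with 0 to 20 counts in each heated library. It stood at 62.37, 57.23 and 27.28 TPM in MH control, at 0, 0.07 and 0.02 TPM in MH 38 and at 0, 0.72 and 0.19 TPM in MH 40. The unheated MH libraries were thus all above every heated library of either material and all below every unheated Ken library. Ken control exceeded MH control 49.0-fold in scaled counts (log2 change of MH against Ken -5.62 ± 0.69), and the entry ranked 2827th by mean TPM in MH control. In MH 38 only 3 counts were left in the 3 libraries together, against 4311 in MH control, a ratio of 2234 with a 95% exact counting interval of 764 to 10838. In MH 40 the count was 25, the scaled ratio 256 and the log2 change -8.04 ± 0.83. Of these 25 counts 20 came from replicate 2, and without that library the log2 change was -9.79.

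The tricyclene synthase TPS4 entry followed the same course at lower levels per length. It stood at 857.61, 596.19 and 504 TPM in Ken control, at 0.14, 0.20 and 0.27 TPM in Ken 38 and at 0.18, 0.56 and 0.28 TPM in Ken 40. In MH it stood at 16.19, 13.91 and 5.44 TPM in the control, at 0.03, 0.01 and 0.03 TPM in MH 38 and at 0, 0.24 and 0.11 TPM in MH 40. As for the terpineol synthase entry, the control libraries of each material lay above all heated libraries, Ken control lay above MH control, and the 4 heated groups overlapped with their neighbours in the order Ken 40, Ken 38, MH 40 and MH 38. The entry ranked 150th by mean TPM in Ken control and 10716th in MH control. Its log2 changes were -12.12 ± 0.94 in Ken 38 (the third lowest of all tested genes), -11.30 ± 0.91 in Ken 40, -9.64 ± 0.96 in MH 38 and -7.47 ± 0.82 in MH 40. Without MH 40 replicate 2 the last value was -8.56. Ken control exceeded MH control 53.7-fold in scaled counts, and at 40 °C Ken exceeded MH 3.67-fold for either monoterpene synthase entry, on 74 against 25 counts for terpineol synthase and 101 against 34 for TPS4. With single libraries left out, the log2 change of MH 40 against Ken 40 ran from -3.68 (without MH 40 replicate 2) to -1.31 (without MH 40 replicate 1) for terpineol synthase, and from -3.02 to -1.31 without the same libraries for TPS4.

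**Figure D1:**
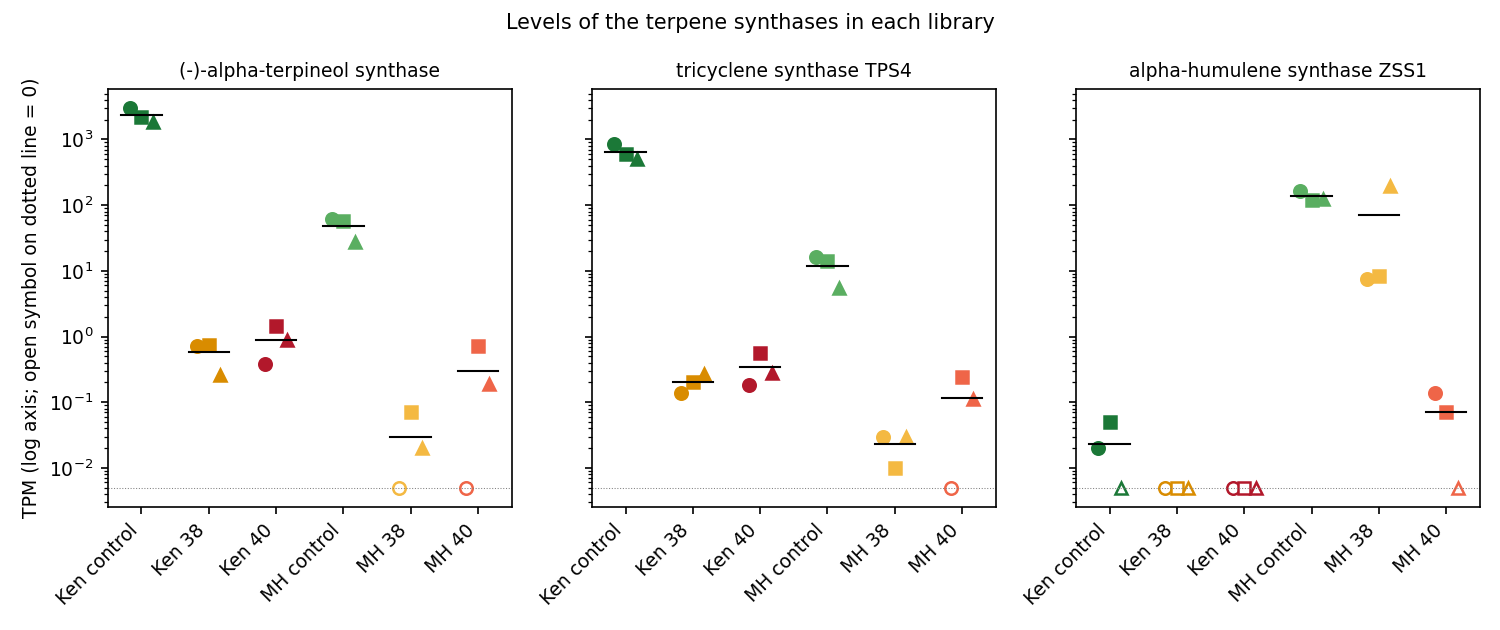
TPM of the 3 terpene synthase entries on a log axis, by group, with replicates 1, 2 and 3 as circle, square and triangle, group means as black lines and libraries at 0 as open symbols on the dotted line. The 2 monoterpene synthase entries are high in Ken control (1838.88 to 3018.51 and 504 to 857.61 TPM), lower in MH control and near 0 in the heated groups, while ZSS1 is high in MH control and in MH 38 replicate 3 (197.63 TPM) and at or near 0 in Ken.

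The estimated counts of the terpineol synthase and TPS4 entries were close to equal in the Ken control libraries and differed by up to 1.32-fold in MH control, although their levels ranged widely between libraries. In Ken control they were 80529 and 82126 in replicate 1, 66437 and 65205 in replicate 2, and 53607 and 52946 in replicate 3. In MH control they were 1941 and 1892 in replicate 1, 1661 and 1529 in replicate 2, and 709 and 538 in replicate 3. The ratio of terpineol synthase to TPS4 counts ran from 0.981 to 1.32 in these 6 libraries, and from 0.333 to 1.33 in the 8 libraries with 10 to 99 TPS4 counts, where counting error is large. Each entry took a mean of 0.315% of all counts in Ken control. The TPM of terpineol synthase was 3.52 to 5.01 times that of TPS4 in the 6 unheated libraries. The listed lengths are 2051 bases for terpineol synthase and 4360 bases for TPS4, and what sets the whole gap in TPM was not tested.

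Of the 29143 described tested genes, TPS4 was the only other entry within a factor of 1.5 of the terpineol synthase counts in all 6 unheated libraries, a factor set after the counts were seen. Both entries had themselves been picked for their levels over these groups, so their likeness is a description and no test. The Pfam domain deposited for the terpineol synthase entry is the N-terminal terpene synthase domain, and that for TPS4 is the C-terminal, metal-binding domain that holds the active site. A single domain is listed for each entry, and ZSS1 too is listed with the C-terminal domain only. Whether either entry lacks the other domain was not tested. Log2 CPM of the pair had a Pearson r of 0.996 over the 18 libraries, which share groups and scaling. Whether the pair are separate genes or pieces of 1 transcript that the assembly divided was not tested, and reads that fit more than 1 entry may have been split between them.

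**Figure D2:**
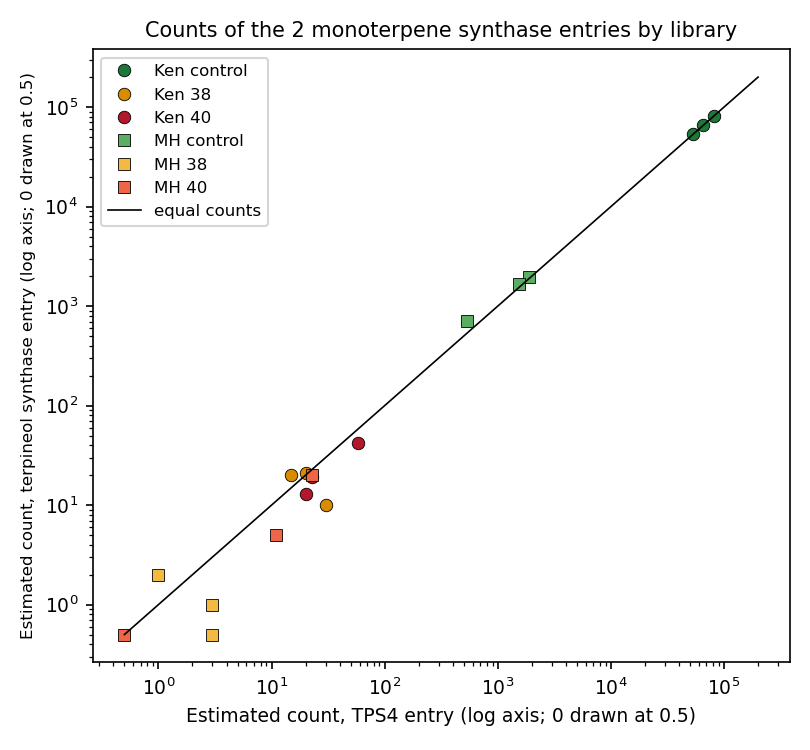
Estimated counts of the terpineol synthase entry (y axis) against the TPS4 entry (x axis) in each library, both on log axes with 0 drawn at 0.5, circles for Ken and squares for MH; the line marks equal counts. The 6 control libraries lie on or near the line between 538 and 82126 TPS4 counts, with count ratios of 0.981 to 1.32. The heated libraries lie at 58 TPS4 counts or fewer with more scatter.

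The sesquiterpene synthase entry ZSS1 showed the opposite order of the materials: it was abundant in unheated MH leaf and at or near 0 in every Ken library. In MH control it stood at 165.42, 119.81 and 124.10 TPM, ranking 890th by mean TPM. In Ken control it stood at 0.02, 0.05 and 0 TPM, and all 6 heated Ken libraries were listed at 0. No Ken library thus came near any MH control library. The 20549 counts in MH control faced 3 counts in Ken control, a ratio of 6705 with a 95% exact counting interval of 2294 to 32518. By mean TPM the most abundant volatile terpene synthase entry was thus the terpineol synthase in Ken control and ZSS1 in MH control.

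In heated MH leaf, ZSS1 was uneven between libraries at 38 °C and near 0 at 40 °C. In MH 38 it stood at 7.49, 8.46 and 197.63 TPM, so replicates 1 and 2 lay below every MH control library and replicate 3 above all of them. The log2 change of MH 38 was -1.38 ± 1.17 with all libraries and -4.68 ± 0.35 without replicate 3. The high library is the MH 38 replicate whose leaf markers were also high, while its terpineol synthase and TPS4 counts were 1 and 3, as low as in the other MH 38 libraries. In MH 40 ZSS1 stood at 0.14, 0.07 and 0 TPM, on 12 counts in all, and the scaled ratio of MH control to MH 40 was 2898 (log2 change -11.40 ± 1.92). MH 38 exceeded Ken 38, which had no count, at least 1221-fold (the floor being 3 counts in each library). The bound was at least 124-fold without MH 38 replicate 3, which held 10486 of the 11345 counts. At 40 °C no fold can be given because MH 40 held 12 counts and Ken 40 none. Over the 18 libraries the log2 CPM of ZSS1 had a Pearson r of 0.02 with terpineol synthase and 0.01 with TPS4.

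In bulk leaf RNA, fewer cells of a type and less RNA per cell cannot be told apart, and this holds for each fall described here. The summed leaf markers also fell with heat: their mean in Ken went from 130337 to 26951 and 3103 TPM and their mean in MH from 183094 to 17015 and 1911 TPM. The terpineol synthase means in the same order were 2346.97, 0.573 and 0.897 TPM in Ken and 48.96, 0.03 and 0.303 TPM in MH. ZSS1 was at or near 0 in Ken with and without heat. Of the 87 tested leaf markers, 49 fell and 3 rose in Ken 38 (15.9% of all tested genes were called lower), 61 fell and 5 rose in Ken 40 (20.7%), 59 fell and 9 rose in MH 38 (17.3%), and 67 fell and 7 rose in MH 40 (24.6%), where rose and fell mean an adjusted p below 0.05 in edgeR's quasi-likelihood test with Benjamini-Hochberg adjustment over all tested genes. Their part in the falls of the terpene synthases was not tested.

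The deposited table holds 17 further entries whose descriptions name volatile-forming terpene synthases, 8 of which were tested. TRINITY_DN62373_c0_g2 among them is called a terpene synthase in the nr database, but its Swiss-Prot match is ent-kaur-16-ene synthase, a diterpene enzyme of gibberellin synthesis. Their summed level in Ken went from 147 ± 24.2 TPM (SD, n = 3) without heat to 22.6 ± 10.1 at 38 °C and 235 ± 69.3 at 40 °C. In MH the same sum went from 54.02 ± 10.2 to 33.0 ± 34.0 and 16.2 ± 3.32 TPM. Without TRINITY_DN62373_c0_g2, a choice made after seeing the data, the sums were 75.3, 15.4 and 229 TPM in Ken and 28.4, 28.8 and 15.4 TPM in MH. The libraries of Ken control (128.05 to 174.42 TPM) and Ken 40 (155.14 to 275.8 TPM) overlapped, and the difference of their sums was not tested. The 3 entries made up a mean of 95.1% of all volatile terpene synthase TPM in Ken control and 78.4% in MH control. Their mean share was 3.95% in Ken 38 and 0.630% in Ken 40. In MH 38 it was 49.9% (33.8% to 73.3% by library), and in MH 40 it was 2.89%. Without TRINITY_DN62373_c0_g2 the shares in control, 38 °C and 40 °C were 97.5%, 6.13% and 0.660% in Ken and 87.8%, 53.9% and 3.06% in MH. Most volatile terpene synthase TPM in heated Ken leaf thus came from other entries, whose mean sum was 22.6 TPM in Ken 38 and 235 TPM in Ken 40 against 147 TPM in Ken control. In Ken 38 1 of the 8 rose and 4 fell, beside 36.2% of all tested genes called (20.3% higher, 15.9% lower). In Ken 40 4 rose and 2 fell, beside 45.8% called (25.1% higher, 20.7% lower). In MH 38 1 (TRINITY_DN62373_c0_g2) fell and none rose, beside 47.4% called (30.1% higher, 17.3% lower), and in MH 40 3 rose and 2 fell, beside 67.4% called (42.7% higher, 24.6% lower). With 8 entries, these counts are given as a description.

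Entries that match the same ginger alpha-humulene synthase differed among themselves in material and temperature, as the plot of the ZSS1-matched entries shows. There are 5 of them, ZSS1 itself included, and 4 were tested. TRINITY_DN61410_c3_g3, an entry of 569 bases, stood at 1.47, 2.90 and 2.73 TPM in Ken control, at 0.09, 0.65 and 0.47 TPM in Ken 38 and at 82.79, 34.57 and 65.05 TPM in Ken 40. It fell in Ken 38 (log2 change -3.41 ± 0.82, adjusted p = 0.0028) and rose in Ken 40 (4.21 ± 0.66, adjusted p = 4.0e-05), with no overlap between the 3 groups. In MH it was at most 3.21 TPM in any library and fell in MH 40 (-3.43 ± 0.96, adjusted p = 0.0043). The responses at 40 °C differed between the materials by -7.63 ± 1.14 on the log2 scale, MH minus Ken (adjusted p = 7.5e-05).

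TRINITY_DN56166_c0_g3 (1586 bases) stood at 39.66, 42.94 and 32.03 TPM in Ken control, at 4.17, 5.74 and 11.62 TPM in Ken 38 and at 174.59, 90.86 and 187.5 TPM in Ken 40. It fell in Ken 38 (-3.01 ± 0.85, adjusted p = 0.014), a call lost without Ken 38 replicate 1 or 2 (adjusted p up to 0.072). Its Ken 40 libraries all lay above the Ken control libraries in TPM, but the log2 change of 0.98 ± 0.78 did not pass the test (adjusted p = 0.33). It was lower in MH control than in Ken control (-3.83 ± 0.89, adjusted p = 0.0081; 21.8% of all tested genes were called in this comparison, 10.1% higher and 11.7% lower in MH), the reverse of ZSS1. TRINITY_DN59137_c0_g2 (1893 bases) stood at 20.57, 28.07 and 18 TPM in Ken control and at 32.13, 11.9 and 12.33 TPM in MH control, so that its controls overlapped. It fell in Ken 38 (-3.45 ± 1.17, adjusted p = 0.036) and in Ken 40 (-3.28 ± 1.16, adjusted p = 0.036), and these calls were lost when any Ken control library was left out (adjusted p up to 0.12 and 0.13). Like ZSS1 it stood high in MH 38 replicate 3, at 60.76 TPM against 3.86 and 8.01 TPM, and its log2 change of 0.15 ± 1.05 in MH 38 became -2.87 without that library (adjusted p = 0.0135).

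**Figure D3:**
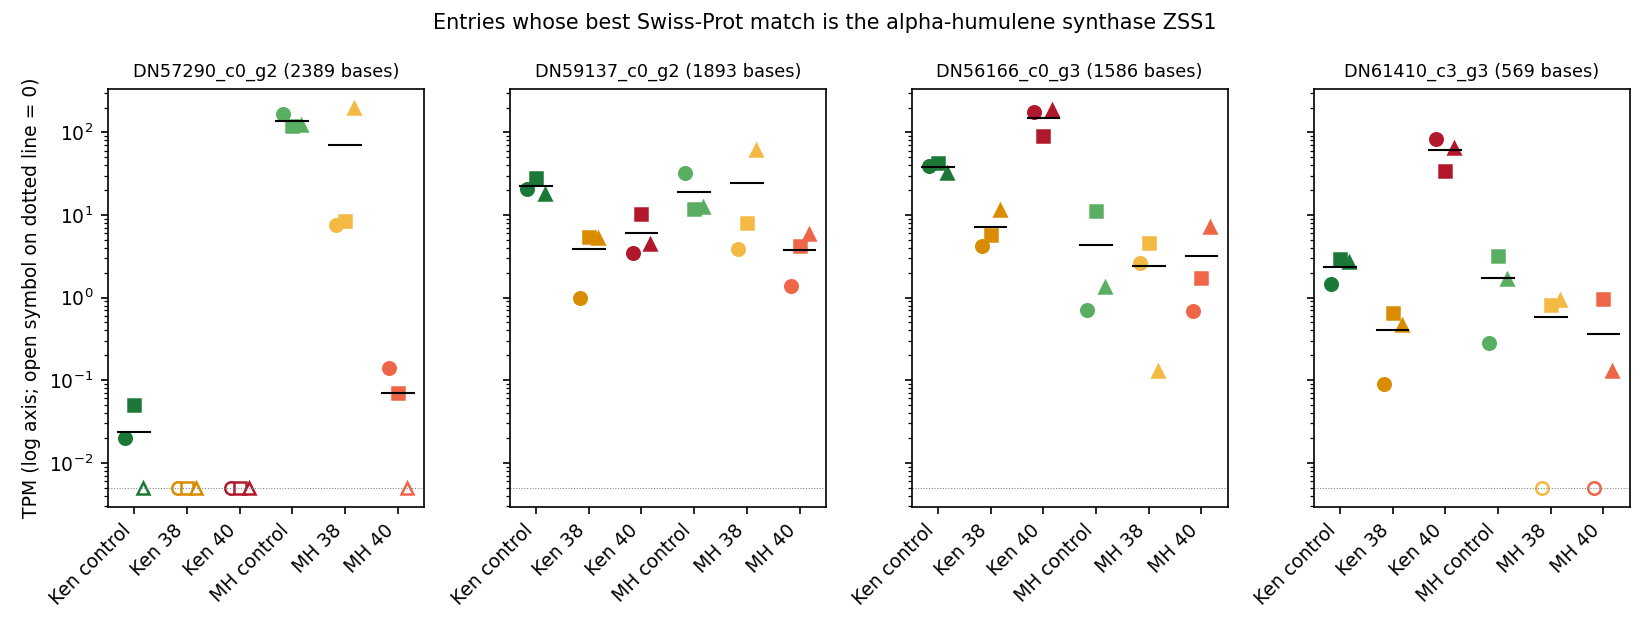
TPM of the 4 tested entries whose best Swiss-Prot match is the ginger alpha-humulene synthase ZSS1, on a log axis, by group; replicates 1, 2 and 3 are circle, square and triangle, black lines are group means, and open symbols on the dotted line are libraries at 0. DN57290_c0_g2 is highest in MH control and MH 38 replicate 3, DN59137_c0_g2 has overlapping controls, and DN56166_c0_g3 and DN61410_c3_g3 are highest in Ken 40 (90.86 to 187.5 and 34.57 to 82.79 TPM).

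The other entries of the volatile list were either of another kind or at low levels. The mean of the ent-kaurene-matched TRINITY_DN62373_c0_g2 fell from 71.85 ± 2.71 to 7.17 ± 2.60 and 5.71 ± 3.33 TPM in Ken and from 25.59 ± 3.98 to 4.2 ± 3.76 and 0.843 ± 0.118 TPM in MH, and all 4 falls passed the test (log2 changes of -4.13, -4.71, -3.82 and -5.25). The remaining 4 tested entries, named after their values were seen, stayed below 5 TPM in every library. TRINITY_DN34879_c3_g1, described as a nerolidol synthase, was at 0 in Ken control and rose to 2.15, 3.09 and 4.61 TPM in Ken 38 (adjusted p = 3.5e-06) and then stood at 0.24, 0.07 and 0.06 TPM in Ken 40 (adjusted p = 0.012 against the control). TRINITY_DN44293_c0_g2, described as probable terpene synthase 11, and TRINITY_DN44293_c0_g9, described as geraniol synthase, were at 0 in both controls and rose in Ken 40 to means of 2.02 and 2.11 TPM (adjusted p = 0.0012 and 0.0030) and in MH 40 to 0.667 and 0.637 TPM (adjusted p = 0.0097 and 0.019). TRINITY_DN41031_c1_g1, whose Swiss-Prot match is a Magnolia alpha-terpineol synthase, rose in MH 40 from 0.303 ± 0.273 to 2.31 ± 1.41 TPM (adjusted p = 0.0095).

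The pathway genes that supply and modify terpenes mostly fell with heat. Of 74 terpenoid entries without the 3 synthases, 57 were tested: 31 fell and 4 rose in Ken 38, 31 fell and 7 rose in Ken 40, 32 fell and 2 rose in MH 38, and 41 fell and 4 rose in MH 40. Without MH 38 replicate 3, 38 of 63 tested fell and 2 rose in MH 38. Their median log2 changes were -0.92, -1.16, -1.32 and -2.51, beside medians of 0.42, 0.30, 0.73 and 1.03 over all tested genes and of -0.07, -0.10, -0.08 and -0.29 over the described ones, of which 29.2%, 32.5%, 30.6% and 42.1% were called lower. Scaled by library totals alone, the list's medians stayed below 0 in all 4 (-0.35, -0.68, -0.51 and -1.51) and the counts that fell were 22, 27, 24 and 33. That scaling moved the median of all tested genes up by 0.55, 0.46, 0.82 and 0.98.

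In the plastid MEP pathway, which feeds monoterpene synthesis, 7 of 9 entries fell in Ken 38, 8 in Ken 40, 8 in MH 38 and all 9 in MH 40, and none rose. The shares of described tested genes called lower were, in the same order, 29.2%, 32.5%, 30.6% and 42.1%. IspH (TRINITY_DN51109_c0_g1), the reductase that ends the pathway, was the only pathway entry among the 5 described genes most alike TPS4. It stood at 307.46, 292.94 and 295.03 TPM in Ken control, between 77.88 and 97.79 TPM in the 6 heated Ken libraries, at 168.33, 161.13 and 151.58 TPM in MH control and between 92.95 and 132.83 TPM in the heated MH libraries. Its log2 changes were -2.17 and -2.22 in Ken 38 and Ken 40 and -1.31 and -1.22 in MH 38 and MH 40, all past the test, and was lower in MH control than in Ken control (-0.91 ± 0.14, adjusted p = 5.7e-05). Its responses differed between the materials by 0.87 ± 0.20 at 38 °C (adjusted p = 0.0066) and by 1.01 ± 0.20 at 40 °C (adjusted p = 0.00081), where 10.8% (6.07% higher, 4.78% lower) and 21.4% (10.3% higher, 11.1% lower) of all tested genes were called. The MH 40 fall was lost under scaling by library totals alone (adjusted p = 0.14). DXS (TKT2, TRINITY_DN50900_c0_g1), the entry enzyme of the pathway, stood at 213 ± 17.4 TPM in Ken 38 against 278 ± 26.8 in Ken control (log2 change -0.89 ± 0.59, adjusted p = 0.27, and -0.89 at an adjusted p of 0.0066 without MH 38 replicate 3) and fell in Ken 40 (-4.10 ± 0.67), MH 38 (-3.07 ± 0.64, and -4.60 without MH 38 replicate 3) and MH 40 (-5.05 ± 0.70). IspF (TRINITY_DN36000_c1_g2) fell in all 4 comparisons (-1.48 to -2.74). IspG (TRINITY_DN61832_c0_g1) fell in all 4 (-0.42 to -0.86), but the Ken 40 and MH 38 calls were lost under 8 and 7 alternatives, DESeq2 and RLE size factors included (adjusted p up to 0.82 and 0.31). When only library totals were used for scaling none of its 4 calls held and its sign turned in Ken 40, MH 38 and MH 40.

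In the cytosolic mevalonate pathway, the source for sesquiterpenes such as humulene, 7 of 13 entries fell and 2 rose in Ken 38, 2 fell and 2 rose in Ken 40, 8 fell and 1 rose in MH 38, and 9 fell and 1 rose in MH 40. Among described tested genes 29.2%, 32.5%, 30.6% and 42.1% were called lower and 18.8%, 23.4%, 23.2% and 29.7% higher in these 4 comparisons. The responses at 40 °C were lower in MH than in Ken for 9 of the 13 and higher for 1, beside 21.1% and 10.2% of the described tested genes. AAT1 (TRINITY_DN62236_c1_g1), the thiolase of the opening step, fell in all 4 comparisons (log2 changes of -1.95 to -2.82). Mevalonate kinase (At5g27450, TRINITY_DN33500_c0_g1) and the thiolase-like At5g47720 (TRINITY_DN52086_c0_g2) fell in Ken 38 (-0.98 and -0.94) and in both MH comparisons (-0.95 and -1.36, and -1.47 and -1.92), the MH calls of mevalonate kinase (adjusted p up to 0.55 and 0.051) and the Ken 38 call of At5g47720 (adjusted p up to 0.14) not holding under library totals, while in Ken 40 their changes of -0.18 ± 0.16 and 0.15 ± 0.20 did not pass the test. PMK (TRINITY_DN63188_c0_g1), described as phosphomevalonate kinase, went the other way in MH: it rose from 16.91, 20.04 and 16.56 TPM in MH control to 83.62, 84.62 and 27.11 TPM in MH 38 (log2 change 1.19 ± 0.29, adjusted p = 0.0033) and to 91.79, 116.17 and 94.26 TPM in MH 40 (1.99 ± 0.30, adjusted p = 2.2e-05). The PMK entry is listed at 10000 bases, and whether all of its reads come from this gene was not tested.

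Among prenyl diphosphate synthases, which join the isoprene units, 5 of 10 entries fell in Ken at either temperature, 5 fell in MH 38 and 7 fell in MH 40, and at most 1 rose. GGPPS1 (TRINITY_DN61712_c2_g1), described as the large subunit of the heterodimeric geranyl(geranyl) diphosphate synthase that supplies the monoterpene precursor in other plants, stood at 143 ± 7.86 TPM in Ken control and 148 ± 2.07 in MH control. It fell to 10.3 ± 1.37 and 8.41 ± 1.89 TPM in Ken 38 and Ken 40 (log2 changes -4.22 ± 0.35 and -4.41 ± 0.35) and to 8.43 ± 4.64 and 2.66 ± 1.14 TPM in MH 38 and MH 40 (-4.66 ± 0.36 and -6.57 ± 0.40). Unlike the monoterpene pair it did not separate the unheated materials (-0.11 ± 0.30, adjusted p = 0.88, with a difference of -2.17 ± 0.45 in the response at 40 °C, adjusted p = 0.0023). GGPS (TRINITY_DN49363_c0_g1), a geranylgeranyl diphosphate synthase, fell in all 4 comparisons (-3.92 to -6.64), as did SPS3 (TRINITY_DN52243_c0_g2), a plastid solanesyl diphosphate synthase (-3.32 to -4.55). SPS1 (TRINITY_DN51954_c2_g1), a mitochondrial solanesyl diphosphate synthase, fell in Ken 38 (-0.61 ± 0.15) and MH 38 (-0.46 ± 0.15) and rose in Ken 40 (0.51 ± 0.15), with the sign in MH 38 turning to 0.39 under library totals, where the Ken 38 call was lost as well (adjusted p = 0.89). The MH 38 call was lost under 8 alternatives, DESeq2 and the fit without MH 38 replicate 3 included (adjusted p up to 0.20), and the Ken 40 call without Ken control replicate 3 (adjusted p = 0.060).

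Of 13 tested entries for enzymes that oxidise monoterpenes, 5 fell in Ken 38 and 10 in Ken 40, while in MH 9 fell at 38 °C and 10 at 40 °C, and none rose. SDR1 (TRINITY_DN51618_c0_g1), a menthol-type dehydrogenase, fell in all 4 (-2.65 to -5.03), as did the geraniol 8-hydroxylase CYP76B10 (TRINITY_DN42373_c0_g4, -3.38 to -7.04). CYP76B6 (TRINITY_DN59624_c0_g3), another geraniol 8-hydroxylase, did not pass the test in Ken (0.39 ± 0.43 and -0.24 ± 0.43) and fell in MH 38 and MH 40 (-1.32 ± 0.43 and -1.85 ± 0.44), and the MH 38 call was lost under 7 alternatives, among them the fits without each MH control library (adjusted p up to 0.22), and the MH 40 call under library totals (adjusted p = 0.051). CYP76C2 (TRINITY_DN42835_c3_g6) fell in Ken 40 (-2.33 ± 0.71, lost without Ken 40 replicate 2 or 3, adjusted p up to 0.067), MH 38 (-3.59 ± 0.73) and MH 40 (-3.71 ± 0.74). Without MH 38 replicate 3 the MH 38 changes were -5.51 for CYP76C2, -2.00 for CYP76B6, -5.60 for SDR1 and -5.25 for GGPPS1. All 4 tested diterpene synthase entries fell in Ken 40 and in MH 40, 3 fell in Ken 38, and 1 rose and 1 fell in MH 38. With 4 entries, these counts are a description beside the shares given above (23.2% of described tested genes were called higher in MH 38).

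**Figure D4:**
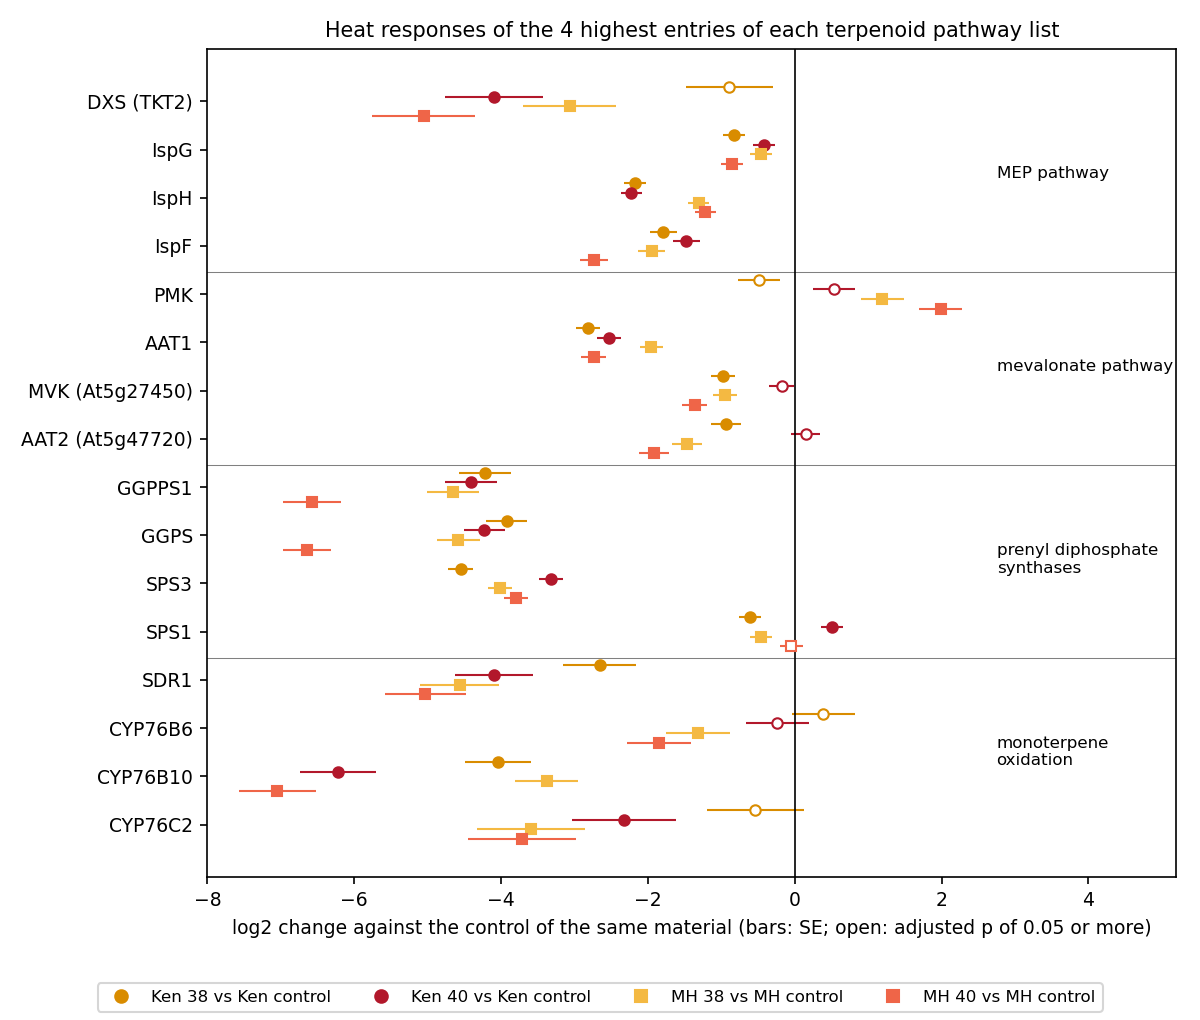
Log2 change ± SE against the control of the same material for the 4 entries with the highest mean level in each terpenoid list; circles are Ken, squares are MH, and open symbols mark an adjusted p of 0.05 or more. Most points lie left of 0, down to -7.04 for CYP76B10 in MH 40, and PMK lies right of 0 in MH 38 (1.19) and MH 40 (1.99).

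Volatile enzymes outside the terpenoid pathway were few in leaf. HPL (TRINITY_DN51958_c0_g5), matched to the hydroperoxide lyase that makes green leaf aldehydes but called probably inactive in nr, fell in Ken 40 (-4.00 ± 1.12, adjusted p = 0.011) and MH 40 (-6.14 ± 1.28, adjusted p = 0.0011), the former lost without Ken 40 replicate 2 (adjusted p = 0.051). In MH 38 it stood at 3.94, 2.08 and 69.24 TPM, high in the same replicate 3 as ZSS1, and its change of -0.47 ± 0.99 became -3.69 without it. The 2 HSR201 entries (TRINITY_DN45015_c0_g8 and TRINITY_DN45015_c0_g4), matched to a benzyl alcohol benzoyltransferase that makes the scent ester benzyl benzoate, fell in all 4 heat comparisons from means of 1.56 and 1.03 TPM in Ken control and 4.68 and 2.35 TPM in MH control to at most 0.23 TPM in any heated library. JMT (TRINITY_DN31018_c0_g2), matched to jasmonate methyltransferase, stood at 1.37, 1.65 and 3.85 TPM in Ken control and had no count in any heated Ken library, which puts Ken control at least 12.1-fold above Ken 38 and at least 10.6-fold above Ken 40 against a floor of 3 counts per library.

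Tested entries from the same assembly components as the 3 synthases encode unrelated proteins, so these components did not hold another terpene synthase that was tested. CSP41B (TRINITY_DN57290_c0_g1), a plastid RNA-binding protein, shares its component with ZSS1 but was at 262 ± 6.99 TPM in Ken control and 225 ± 9.53 TPM in MH control, and it fell in the 4 heat comparisons (-4.31 to -8.44, with -4.31 in MH 38 becoming -5.42 without MH 38 replicate 3). RAD (TRINITY_DN61283_c2_g2), a MYB-type transcription factor match in the TPS4 component, reached at most 8.16 TPM and fell in all 4 (-2.31 to -4.16). Its calls in Ken 38, Ken 40 and MH 38 were each lost when single libraries were left out (adjusted p up to 0.10, 0.11 and 0.12), and the MH 40 call held. Without MH 38 replicate 3 its MH 38 change was -4.88. The ycf45 entry (TRINITY_DN52761_c0_g2) in the terpineol synthase component fell in Ken (-1.95 and -2.23) and in MH (-0.93 and -0.75), where in MH both calls were lost under several alternatives (adjusted p up to 0.75 and 0.47) and the MH 40 sign turned to 0.25 under library totals.

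The described genes whose log2 CPM followed the 3 entries most closely over the 18 libraries were named by Pearson r, as a description across libraries that share groups. For the terpineol synthase entry they were TPS4 (0.996), a primary amine oxidase (At1g62810, TRINITY_DN50461_c0_g1, 0.977), an uncharacterised protein (TRINITY_DN58491_c1_g2, 0.976), the mitochondrial ADP,ATP carrier ANT1 (TRINITY_DN54166_c1_g3, 0.975) and the thylakoid protein TERC (TRINITY_DN48012_c0_g1, 0.974). For TPS4 they were terpineol synthase, the amine oxidase (0.984), a polcalcin-like calcium-binding protein (TRINITY_DN62989_c0_g1, 0.977), IspH (0.976) and the uncharacterised protein (0.975). The amine oxidase stood at 109.57, 152.72 and 87.68 TPM in Ken control and at 16.99, 21.06 and 12.91 TPM in MH control, and between 1.64 and 8.16 TPM in the heated libraries. It had the order Ken control, MH control, heated groups, at a smaller range, as a gene picked for following the pair over these libraries.

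For ZSS1 the 5 nearest were a hypothetical protein (TRINITY_DN43362_c3_g1, 0.986), a disease resistance protein (At1g15890, TRINITY_DN64132_c0_g1, 0.985), a mannose-binding lectin (LECCVA1, TRINITY_DN31774_c0_g2, 0.985), the disease resistance protein RFL1 (TRINITY_DN53679_c0_g1, 0.979) and a scopoletin glucosyltransferase (TOGT1, TRINITY_DN41555_c0_g4, 0.977). All 5 were at 0 in the Ken control libraries. The lectin stood at 23.39, 96.98 and 133.68 TPM in MH control, at 6.43, 5.82 and 32.33 TPM in MH 38 and at 0.08, 0.14 and 0.04 TPM in MH 40, with its highest MH 38 level in replicate 3. These genes were picked for following ZSS1 over the same libraries, so such likeness comes with the choice. These lists depended on the measure: with log2(TPM + 1) 1 of the 5 names was shared for each entry, and with Spearman's rho 1, 2 and 0 were shared for terpineol synthase, TPS4 and ZSS1.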

How the data were processed

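RNA from 18 leaf libraries was sequenced by Illumina. The deposited table holds, for each library, an estimated count made by the authors per assembled gene, with no normalisation, and a TPM value that the authors scaled by gene length and library; the unlabelled second column set is read as TPM because it sums to 967894 to 991008 per library. Adapters were trimmed with cutadapt 1.9, per the submitters' processing notes. Assembler, quantifier and strand handling were not given in the sources used here, so entries that share sequence may share reads.

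The estimated counts, rounded to integers, went into edgeR 4.0.16 under R 4.3.3: filterByExpr with a minimum of 10 counts left 70022 genes (29143 with a description), TMM gave scaling factors of 0.684 to 1.54, and 1 robust quasi-likelihood model with 6 group means and 12 residual degrees of freedom gave 7 comparisons. P-values were adjusted by the Benjamini-Hochberg method over all tested genes, and calls are at an adjusted p below 0.05. The common biological coefficient of variation was 0.389. On simulated counts of only the groups compared, 100 genes were changed 4-fold and 100 were changed 16-fold, up or down, and all others left unchanged. Of these, 98% and 100% were recovered for Ken 38 against control (40783 genes, 22 of 220 calls false) and 85% and 99% for MH 40 (54117 genes, 20 of 204 false). Far more genes were called in the data than were changed there, so these rates do not carry over to the fit with 6 groups. No 2 libraries agreed within counting noise. Counting intervals and floors cover counting error only.

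The synthases and the gene lists (text patterns on the descriptions) were chosen with earlier results of these data known. Named were the 3 synthases, other volatile terpene synthases with a group mean of at least 5 TPM, the 4 highest tested entries of each pathway list, tested entries of the same component, and the 5 described genes with the highest Pearson r of log2 CPM. Alternatives were DESeq2 1.42.0, RLE size factors, library totals only, no filter, a filter at 50 counts, only the groups compared, a replicate block, each library left out, and TPM ratios with a pseudocount of 0.01. A list of arthropod markers matched 4 entries, 3 of which match plant proteins best, and was not used further. Figures were made in matplotlib 3.10.9 from tables built in pandas 2.3.3.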

Additional observations from a re-analysis of the deposited data

Results flagged for a closer look

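The response to heat differed between MH and Ken for some of the named terpene pathway and same-component entries, given below. Of the 57 tested terpenoid entries without the 3 synthases, 5 responses were higher and 3 lower in MH at 38 °C. Over all tested genes 6.07% were higher and 4.78% lower at 38 °C (10.8% called). At 40 °C 5 of the 57 were higher and 20 lower, beside 10.3% and 11.1% of all tested genes (21.4% called). The differences of the 3 synthases themselves were not tested. Each value is the log2 response of MH minus that of Ken, from the interaction term in edgeR with an adjusted p below 0.05. At 38 °C it was 0.87 for IspH, 0.87 for AAT1 and 1.68 for PMK. At 40 °C it was 1.01 for IspH, 1.45 for PMK and 1.48 for ycf45 (TRINITY_DN52761_c0_g2). It was negative at 40 °C for IspF (-1.26), mevalonate kinase At5g27450 (-1.18), At5g47720 (-2.06), GGPPS1 (-2.17), GGPS (-2.42) and the ZSS1-matched entry TRINITY_DN61410_c3_g3 (-7.63). The AAT1 difference was lost without Ken 38 replicate 3 or MH control replicate 1 (adjusted p up to 0.054). The PMK difference at 40 °C was lost in 5 of the leave-out fits (adjusted p up to 0.062), and the ycf45 difference under 6 alternatives (adjusted p up to 0.083). Without MH 38 replicate 3, 10 further named entries differed at 38 °C, a count that includes TOGT1 (-7.48), named by its Pearson r with ZSS1. The others were DXS (-3.71), CYP76C2 (-4.98), SDR1 (-2.95), HPL (-2.98), CYP76B6 (-2.39), GGPS (-1.20), GGPPS1 (-1.03), At5g47720 (-0.76) and, in the other direction, SPS3 (0.61). In that fit 14839 of all 83042 tested genes differed at 38 °C.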

How the results depend on the processing

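With only the groups compared in the fit, 20150 of 42557 tested genes (47.3%) were called in MH 38 against 33225 of 70022 (47.4%), and with a filter at 50 counts 27935 of 36307 (76.9%) in MH 40 against 47180 (67.4%). The terpenoid calls between the unheated materials numbered 31 against 20 with only those groups in the fit, and ran from 10 to 30 when single libraries were left out. Over all tested genes 45.9% were called in the fit with only those groups, against 21.8% in the main fit. For the difference in response at 38 °C, leaving out libraries gave 5024 (without Ken 38 replicate 1) to 14839 calls (without MH 38 replicate 3) against 7591, and 5 to 24 terpenoid calls against 8; DESeq2 gave 11409 and 15. Reversed under library totals were SPS1 in MH 38 (0.39) and MH 40 (0.96), ycf45 in MH 40 (0.25) and IspG in Ken 40 (0.057), MH 38 (0.39) and MH 40 (0.15). Reversed without MH 38 replicate 3 were TRINITY_DN59137_c0_g2 in MH 38 (-2.87, and up to 0.70 without other libraries) and the HPL difference at 38 °C (-2.98, and up to 1.07). The cause was not tested.

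Library totals raised the share of calls that were higher from 56.1% to 76.6% in Ken 38, 54.8% to 68.4% in Ken 40, 63.5% to 85.2% in MH 38, 63.4% to 79.3% in MH 40, and for the differences in response from 55.9% to 70.8% at 38 °C and 48.2% to 70.8% at 40 °C. Of 107 calls of named pathway genes, 78 held under all alternatives. With the replicate number as a block, the heat comparisons gave 24358 and 30921 calls for Ken and 31558 and 45996 for MH; the numbers do not pair samples (correlations of -0.046 to 0.032). Depth limits the heated libraries, where the monoterpene pair had 0 to 58 counts each.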
